A study of Mus musculus with 6 samples.

Results

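Smooth muscle genes were described in mandibular arches, from which the lower jaw and its muscles develop, of Tbx1 null and wild-type mouse embryos. The group holds 10 genes, among them the transcription factor gene Srf, its coactivator gene Myocd and the actin genes Acta2 and Actg2. The others are the actin-binding protein genes Tagln, Cnn1, Smtn and Lmod1, the myosin heavy chain gene Myh11 and the kinase gene Mylk. The 10 symbols were drawn up with earlier results of these arrays known. Where a gene has several probe sets, the one to be read was chosen by its mean over all 6 arrays, the highest being kept, but each of the 10 genes had only 1 probe set, so this rule left nothing to choose. All 10 were measured, among 19938 genes in all, and no filter on low values was applied to them.

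The Tbx1 null embryos (genotype Tbx1-/-, 3 arrays) and the wild-type embryos (genotype Tbx1+/+, 3 arrays) were of strain C57BL/6 and at embryonic day 9.5 (E9.5), and no treatment or other allele is named. The product of Tbx1 is a T-box factor active in the developing pharyngeal arches. Arches of 3 embryos per genotype were pooled, and the labels do not say whether the 3 arrays of a genotype carried separate pools, so p-values measure the spread between arrays, which may in part be technical. Tbx1 itself read 9.48, 9.39 and 9.63 on the Tbx1 null arrays, against 11.64, 11.36 and 11.31 on the wild-type arrays, as log2 levels (log2 change -1.94, limma adjusted p = 0.000684), and the labels do not say which part of the gene the allele lacks.

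Smooth muscle cells contract through actin and smooth muscle myosin. Most of their contractile genes are switched on by serum response factor (SRF), which binds short A/T-rich sites called CArG boxes, and its coactivator myocardin, the product of Myocd, turns this general factor into one specific for smooth and cardiac muscle. Acta2 and Tagln are early markers of smooth muscle differentiation and Myh11 is a later and more restricted one. In the early mouse heart the cardiac muscle cells also make transcripts of Myocd and, for a time, of Acta2, Tagln and Cnn1. By themselves these genes therefore do not mark a single cell type in an embryo at this stage.

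None of the 10 genes passed a limma adjusted p of 0.05 over all genes, where 0.16% of the 19938 genes tested did (17 higher and 15 lower in Tbx1 null). Acta2, Myocd, Tagln and Cnn1 were nevertheless higher on every Tbx1 null array than on any wild-type array, by 1.36-fold to 2.13-fold. In all, 4 of 10 genes lay higher without overlap, against 8.36% of all genes, and 0 of 10 lay lower without overlap, against 7.06% of all genes. At an unadjusted p under 0.05 the same 4 genes were higher and 0 lower, against 5.5% and 3.94% of all genes. The other 6 genes, Actg2, Myh11, Mylk, Lmod1, Smtn and Srf, had overlapping arrays and changes between -0.17 and 0.03 on the log2 scale. The median change of the 10 genes was 0.01, and that of all genes was -0.01.

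**Figure D1:**
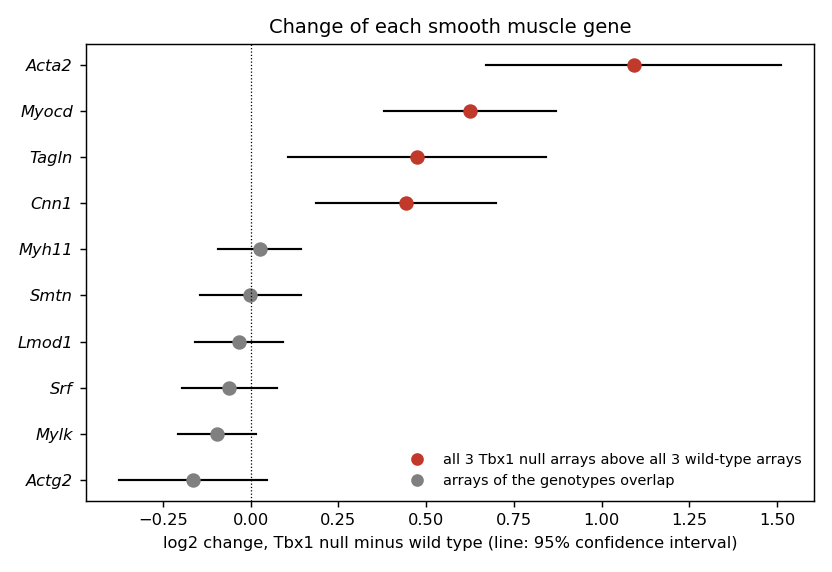
Log2 change of each of the 10 smooth muscle genes (x axis, Tbx1 null minus wild type, n = 3 arrays each), with its 95% confidence interval as a line. Acta2 (1.09), Myocd (0.62), Tagln (0.47) and Cnn1 (0.44), in red, had no overlap between the genotypes, and the other 6 genes, in grey, lay between -0.17 and 0.03.

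CArG boxes were looked for in the RefSeq promoters of the group (build GRCm38.p6, 250 bases before the start to 50 after it), because SRF and myocardin act through them. The table held promoters of 6 of the 10 genes: Srf, Acta2, Cnn1, Smtn, Lmod1 and Mylk. Those of Actg2, Tagln, Myocd and Myh11 are not analysed here. Of the 6 promoters, those of Srf and Acta2 are shown because they held matches, and that of Cnn1 because its gene was among the 4 without overlap. The 250 bases before the start are printed along the gene's strand, 5′ to 3′, and capitals mark each CArG box with up to 1 mismatch in its 6 inner bases. The Acta2 sequence lies at chr19:34255374-34255623 (minus strand), that of Srf at chr17:46556163-46556412 (minus strand) and that of Cnn1 at chr9:22099003-22099252 (plus strand).
Acta2: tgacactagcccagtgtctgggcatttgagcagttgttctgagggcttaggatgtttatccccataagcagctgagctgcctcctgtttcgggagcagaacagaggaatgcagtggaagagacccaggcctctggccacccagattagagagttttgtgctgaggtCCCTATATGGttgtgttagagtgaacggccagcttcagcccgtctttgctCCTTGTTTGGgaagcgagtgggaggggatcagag
Srf: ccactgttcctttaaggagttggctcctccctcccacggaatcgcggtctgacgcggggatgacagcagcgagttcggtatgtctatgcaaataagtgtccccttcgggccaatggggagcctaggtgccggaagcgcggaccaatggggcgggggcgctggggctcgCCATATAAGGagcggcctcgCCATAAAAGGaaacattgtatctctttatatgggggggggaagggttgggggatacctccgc
Cnn1: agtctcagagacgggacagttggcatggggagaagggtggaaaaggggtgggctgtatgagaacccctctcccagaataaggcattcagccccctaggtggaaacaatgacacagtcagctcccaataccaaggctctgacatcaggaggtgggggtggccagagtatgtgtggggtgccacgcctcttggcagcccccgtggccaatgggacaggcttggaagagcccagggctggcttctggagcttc

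The CArG box, a run of 6 A or T bases between CC and GG, was searched on both strands, which read alike in an exact box. The Srf promoter held 2 exact boxes, at positions -82 to -73 and -62 to -53 from the start. The Acta2 promoter held no exact box and 2 boxes with 1 inner mismatch, at -84 to -75 and -34 to -25. An exact box stood in 1.63% of the 32851 promoters of the same length, and a box with up to 1 inner mismatch in 9.98%. No match by either rule was found in these windows of Cnn1, Smtn, Lmod1 and Mylk. The MCAT motif CATTCC, on either strand, occurred once each in Acta2 (-146 to -141), Smtn (-222 to -217), Mylk (-158 to -153) and Lmod1 (-130 to -125), and in 14.7% of all promoters. The T-box motif AGGTGT, searched on both strands, was in none of the 6 and in 13.7% of all promoters. None of these motifs overlapped another in the 6 promoters, and a match is a matter of letters only. Srf, with 2 exact boxes, and Acta2, with 2 imperfect ones, had log2 changes of -0.06 and 1.09.

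**Figure D2:**
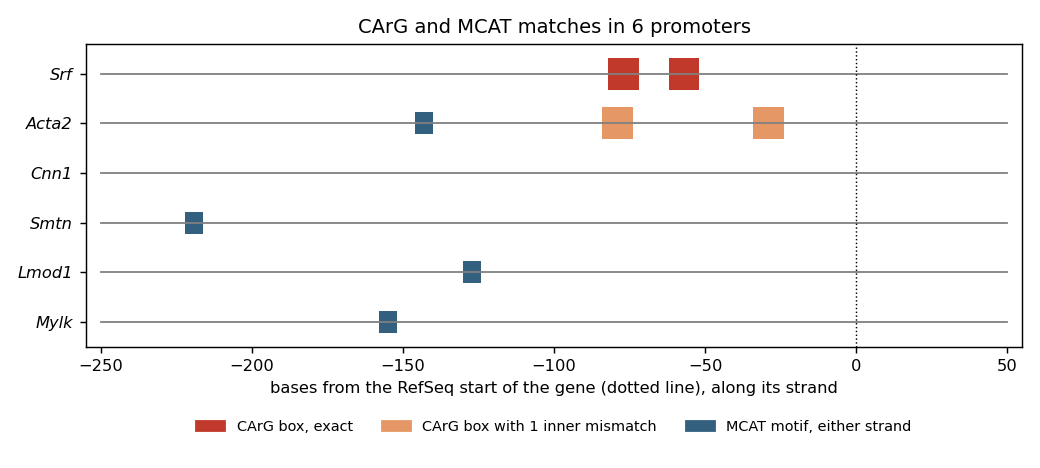
Positions of CArG boxes (red exact, orange with 1 inner mismatch) and MCAT motifs (blue) in 6 promoters, by distance in bases from the RefSeq start (x axis, dotted line at the start). Srf carries 2 exact CArG boxes, Acta2 2 imperfect ones and Cnn1, Smtn, Lmod1 and Mylk none in this window.

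Of the regulators, Srf showed little difference and Myocd was higher in Tbx1 null. Srf (probe set 10451363) read 11.14, 11.09 and 11.28 on the Tbx1 null arrays, against 11.26, 11.24 and 11.19 on the wild-type arrays, as log2 levels. The arrays overlapped, with a log2 change of -0.06 (95% confidence interval -0.20 to 0.07, limma adjusted p = 0.815). Myocd (probe set 10386996) read 8.67, 8.86 and 9.06 on the Tbx1 null arrays, against 8.38, 8.25 and 8.10 on the wild-type arrays. The lowest Tbx1 null array stood 0.30 above the highest wild-type array. The means were 8.87 ± 0.19 in Tbx1 null and 8.24 ± 0.14 in wild type (SD, n = 3 each), 1.54-fold (log2 change 0.62, 95% confidence interval 0.38 to 0.87), with a limma adjusted p of 0.0942 over all genes.

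Acta2, which encodes smooth muscle alpha-actin (probe set 10467124), had the widest difference of the 10. It read 11.23, 11.18 and 11.57 on the Tbx1 null arrays, against 10.65, 10.10 and 9.95 on the wild-type arrays. Wild type replicate 1 was the nearest to the Tbx1 null arrays and still 0.53 below the lowest of them. The means were 11.33 ± 0.21 in Tbx1 null and 10.24 ± 0.37 in wild type (SD, n = 3 each), 2.13-fold with a 95% confidence interval of 1.59 to 2.85. The log2 change of 1.09 had an SE of 0.18 and a limma adjusted p of 0.0865. Actg2, the gamma-actin of enteric smooth muscle (probe set 10545707), did not follow it. It read 7.05, 6.94 and 6.76 in Tbx1 null, against 7.19, 7.12 and 6.94 in wild type, and the arrays overlapped (log2 change -0.17, limma adjusted p = 0.640). The actins are close relatives in sequence, and whether a probe set also reads another actin was not tested. Among the other actin genes measured, the cytoplasmic Actb had a change of 0.0024 and the skeletal Acta1 of 0.04, while the cardiac Actc1, described below with the heart genes, had a change of 1.40.

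Tagln and Cnn1 encode transgelin (SM22 alpha) and calponin 1, which bind actin filaments in smooth muscle. Tagln (probe set 10593123) read 8.72, 8.86 and 9.36 in Tbx1 null, against 8.66, 8.52 and 8.34 in wild type. The genotypes were separated by only 0.07, and Tbx1 null replicate 3 stood well above the other 5 arrays. The change was 1.39-fold (log2 change 0.47, SE 0.16, limma adjusted p = 0.399), and 0.28 on the log2 scale without Tbx1 null replicate 3. Cnn1 (probe set 10583809) read 8.001, 7.94 and 8.28 in Tbx1 null, against 7.82, 7.59 and 7.49 in wild type. The gap between the genotypes was 0.12 and the change 1.36-fold (log2 change 0.44, SE 0.11, limma adjusted p = 0.236). In the RefSeq gene table Tagln overlaps Pcsk7, a proprotein convertase gene, whose own probe set had a log2 change of 0.02. The other genes that overlap members there, Gm38844 (Actg2), Gm30586 (Myocd), 1700119H24Rik and E130310I04Rik (Mylk), Gm11946 (Smtn) and Mir6976 (Srf), are not analysed here.

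The genes of the remaining actin-binding proteins had overlapping arrays. Smtn, which encodes smoothelin (probe set 10383731), read 10.46, 10.49 and 10.64 in Tbx1 null, against 10.60, 10.53 and 10.47 in wild type, with a log2 change of -0.0016 (95% confidence interval -0.15 to 0.14). Lmod1, the actin filament nucleator leiomodin 1 (probe set 10350123), read 7.80, 7.68 and 7.81 in Tbx1 null, against 7.79, 7.85 and 7.74 in wild type. Its change was -0.03 (95% confidence interval -0.16 to 0.09). The limma adjusted p-values were 0.997 for Smtn and 0.906 for Lmod1, which does not show that the levels were equal.

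The kinase gene Mylk and the myosin gene Myh11 likewise showed no separation of the genotypes. Mylk, the kinase that phosphorylates the myosin light chain to start contraction (probe set 10435345), read 8.52, 8.51 and 8.60 in Tbx1 null, against 8.59, 8.68 and 8.65 in wild type. One Tbx1 null array reached into the wild-type range (log2 change -0.10, 95% confidence interval -0.21 to 0.01, limma adjusted p = 0.596). Myh11, the smooth muscle myosin heavy chain (probe set 10437885), read 7.39, 7.31 and 7.27 in Tbx1 null, against 7.35, 7.28 and 7.27 in wild type. The 6 values spanned 0.12 and the change was 0.03 (95% confidence interval -0.09 to 0.14, limma adjusted p = 0.925). No background probes were given, so whether Myh11 and Actg2 were above background on these arrays is not known.

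**Figure D3:**
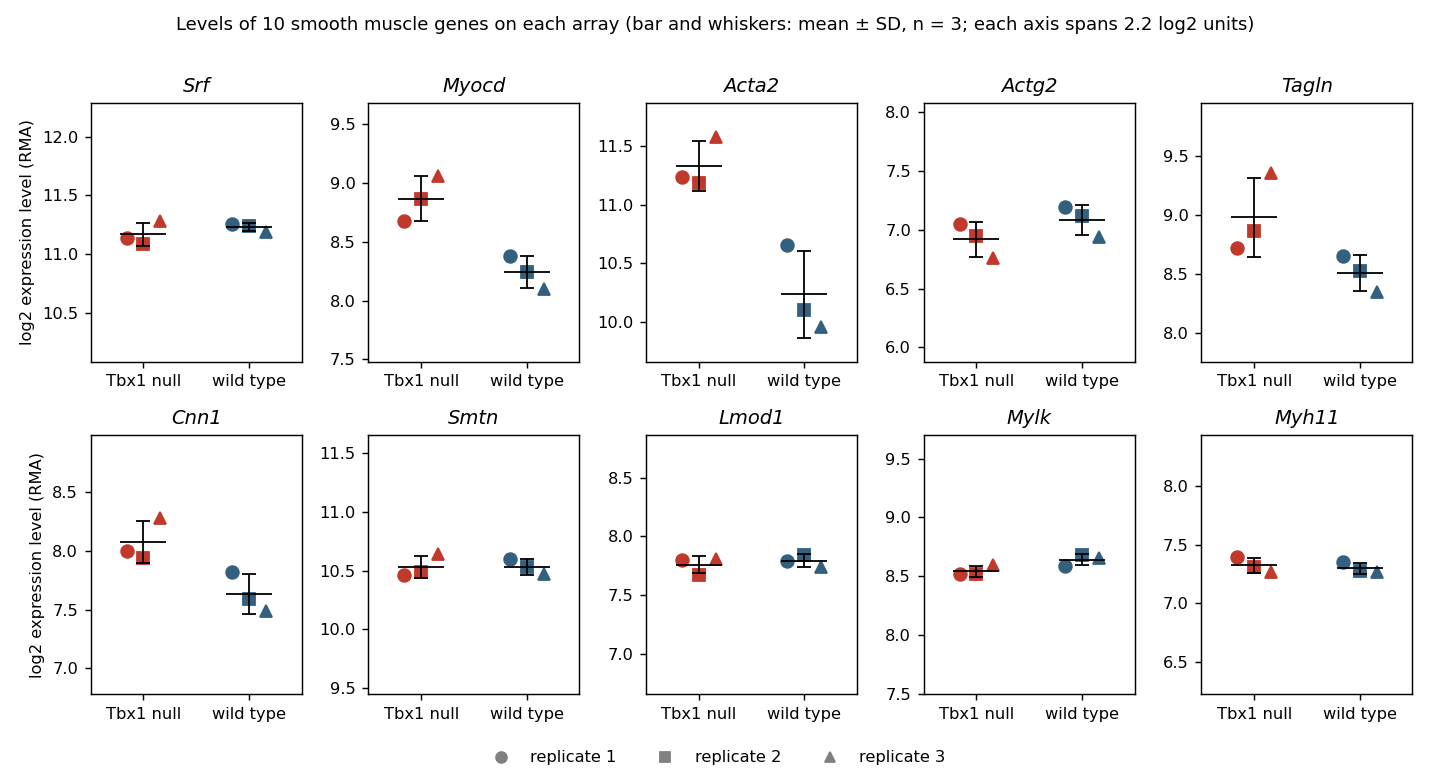
Log2 level (y axis, every panel spanning 2.2 log2 units) of the 10 smooth muscle genes on the 3 Tbx1 null (red) and 3 wild-type (blue) arrays, with marker shapes for replicates 1 to 3 and the mean ± SD as bar and whiskers. Myocd, Acta2, Tagln and Cnn1 separate by genotype, and in these 4 panels replicate 3 is the highest Tbx1 null array and replicate 1 the highest wild-type array.

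The 4 genes without overlap also varied together within each genotype. In all 4, Tbx1 null replicate 3 was the highest Tbx1 null array and wild type replicate 1 the highest wild-type array, a combination seen in 15.4% of all genes. Over the 6 arrays the Pearson correlations among the 4 ranged from 0.89 (Acta2 with Tagln) to 0.98 (Acta2 with Cnn1), and after subtraction of each genotype's mean from 0.77 to 0.96. These are descriptions over 6 arrays that share 2 genotypes, and no test is attached to them. Smtn and Srf, whose genotypes overlapped, had the same highest arrays, so that 6 of the 10 genes shared this combination. After subtraction of the genotype means they correlated with the 4 at 0.88 to 0.98 (Smtn) and 0.70 to 0.91 (Srf).

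Among the 848 genes whose values ranged over at least 0.5 on the log2 scale, the 5 whose pattern over the 6 arrays was most like that of Acta2 were Rtl4 (Pearson r = 0.99), the GATA factor gene Gata6 (0.99), Dact1, a modulator of Wnt signalling (0.99), the homeobox gene Hoxb2 (0.99) and the netrin receptor gene Unc5b (0.98). Their log2 changes lay between 0.33 and 0.63, and none passed a limma adjusted p of 0.05. They were picked for their likeness to Acta2 over the same arrays, so changes in its direction follow from the choice. For Myocd the 5 were Actc1 (0.98), the isocitrate dehydrogenase gene Idh1 (0.97), the giant sarcomere protein gene Ttn (0.97), Dact1 (0.97) and F630048H11Rik (0.97). Of these F630048H11Rik passed (log2 change 0.44, limma adjusted p = 0.0305), and the direction again follows from the choice.

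Markers of cardiac muscle lay higher beside the 4 smooth muscle genes. All 19 markers on the list were measured, 17 lay above 0 and the median log2 change was 0.26. Without overlap 9 lay higher and 0 lower, against 8.36% and 7.06% of all genes. At a limma unadjusted p below 0.05, 10 were higher and 0 lower, against 5.5% and 3.94% of all genes. Tbx20, which encodes another T-box factor and acts in the heart, rose (log2 change 0.68, limma adjusted p = 0.0422), and the other 18 did not pass. Actc1, the cardiac actin gene, read 10.46, 10.91 and 11.62 in Tbx1 null, against 10.05, 9.38 and 9.38 in wild type, which is a log2 change of 1.40 (SE 0.29, limma adjusted p = 0.163). Here too Tbx1 null replicate 3 and wild type replicate 1 were the highest arrays of their genotype, as in 11 of the 19 markers. The summed level of the list, as a log2 value, was 12.89 to 13.54 on the Tbx1 null arrays, against 12.50 to 12.84 on the wild-type arrays, without overlap.

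The heart list also held genes that did not separate. The atrial natriuretic peptide gene Nppa had a change of -0.09, the ventricular light chain gene Myl2 of 0.11, the light chain gene Myl3 of 0.01 and the troponin gene Tnni3 of -0.06, all with overlapping arrays. The part of heart tissue or of heart-like expression in the Acta2, Myocd, Tagln and Cnn1 values was not tested. In tissue RNA, a change in the number of cells of a type and a change in RNA per cell cannot be told apart. Without Tbx1 null replicate 3, the array with the highest summed cardiac level, the log2 changes were 0.97 for Acta2, 0.53 for Myocd, 0.34 for Cnn1 and 0.28 for Tagln. In summed cardiac level Tbx1 null replicates 1 and 2 (12.89 and 13.16) also lay above every wild-type array. Without wild type replicate 1, the wild-type array with the highest summed cardiac level (12.84), the changes were 1.30, 0.69, 0.54 and 0.55 in the same order. Both arrays were also the highest of their genotype for each of these 4 genes. The smaller and larger changes therefore follow from the choice of array.

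**Figure D4:**
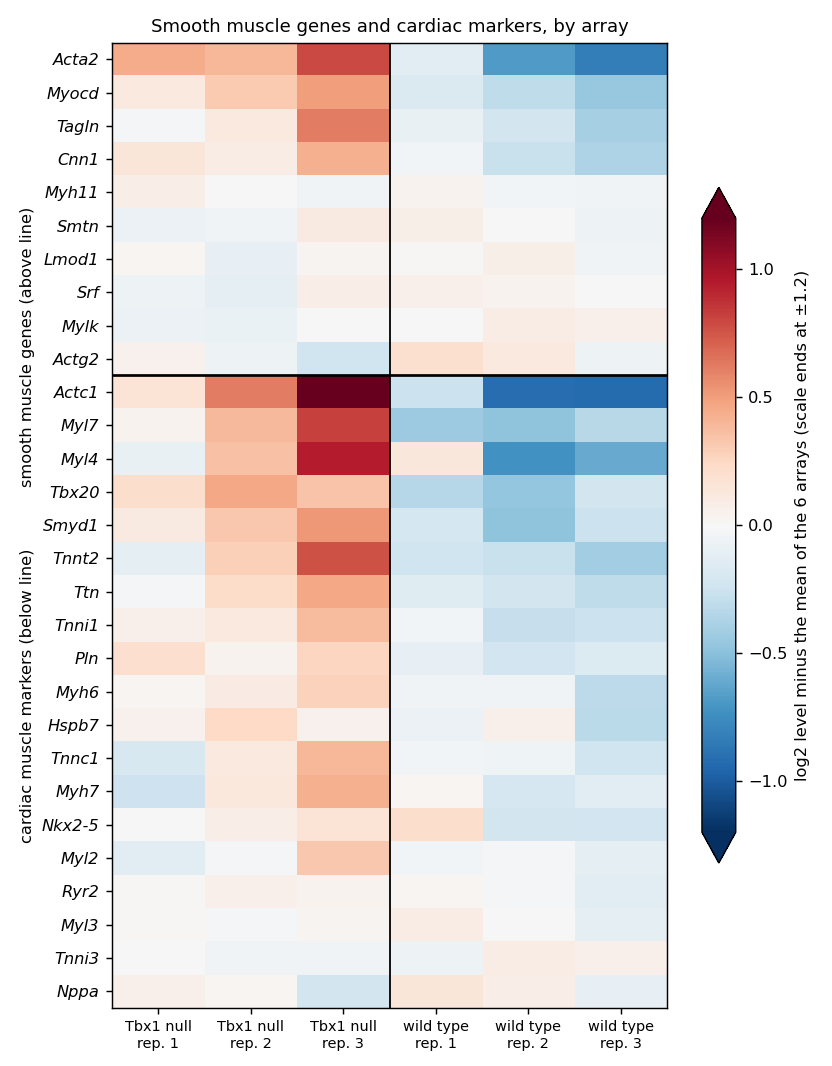
Log2 level minus the mean of the 6 arrays (colour, scale ending at ±1.2) for the 10 smooth muscle genes (above the line) and 19 cardiac muscle markers (below it), each block ordered by its change, on the 3 Tbx1 null (left) and 3 wild-type arrays. Acta2, Myocd, Tagln and Cnn1 share with Actc1, Tnnt2 and Ttn their highest values on Tbx1 null replicate 3 and, in wild type, on replicate 1.

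Other smooth muscle contractile genes had changes of at most 0.33 on the log2 scale. Of 19 measured, 0 passed the limma adjusted p of 0.05, and the median change was 0.02. Without overlap 5 lay higher and 2 lower, against 8.36% and 7.06% of all genes. The phospholamban gene Pln, which restrains the calcium pump in heart and smooth muscle, stands on the cardiac list as well. It had the lowest p, with a change of 0.33 (limma adjusted p = 0.147). Among the 5 higher genes were Pln and the cardiac kinase gene Mylk3, with a change of 0.25. Ppp1r14a, an inhibitor of myosin phosphatase in smooth muscle, and the tropomyosin gene Tpm2 had changes of -0.19 and -0.18 (limma adjusted p = 0.177 and 0.413). The light chain gene Myl9, the caldesmon gene Cald1 and the filamin gene Flna had changes of -0.04, -0.03 and 0.02. Of 15 genes that control the myosin light chain, 0 passed, and all had changes between -0.19 and 0.05. Beside Ppp1r14a the lowest p-values there belonged to the kinase gene Dapk3 (change -0.07) and the light chain gene Myl6 (0.05).

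Partners of SRF and regulators of myocardin gave 0 calls among 18 genes by limma, with a median change of 0.03. At unadjusted p below 0.05 there were 4 higher and 1 lower, against 5.5% and 3.94% of all genes. Mrtfa and Mrtfb, the other members of the myocardin family, had changes of 0.01 and 0.10 (limma adjusted p = 0.966 and 0.639). The lowest p-values were those of Gata6, the zinc-finger factor gene Klf5 and the homeobox gene Prrx1 of arch mesenchyme. Their changes were 0.61 (SE 0.15, limma adjusted p = 0.212), 0.17 and 0.19. Hand2, which is also on the neural crest list, had a change of 0.56 (limma adjusted p = 0.326). Hopx, the 1 lower gene, had a change of -0.27 (limma adjusted p = 0.381). SRF targets outside the group gave 0 calls among 16 genes. At unadjusted p below 0.05 they had 3 higher and 2 lower, against the same shares of all genes. The largest changes on this list were those of Actc1, with 1.40, and of Ankrd1, which encodes a cardiac ankyrin repeat protein, with 0.80 (limma adjusted p = 0.163 and 0.340), both without overlap. The focal adhesion gene Tgfb1i1 had a change of 0.51 and the matricellular gene Ccn2 of -0.31 (limma adjusted p = 0.143 and 0.177). The early response genes Egr1, Fos and Junb, which also answer to SRF, had changes of 0.0064, -0.05 and 0.0027.

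Paralogues of the members gave 0 calls among 19 genes by limma. At unadjusted p below 0.05 there were 2 higher and 2 lower, against 5.5% and 3.94% of all genes. Tagln2 and Cnn2, the broadly expressed relatives of Tagln and Cnn1, had changes of -0.12 and -0.13, opposite in sign to those of Tagln and Cnn1, but neither passed (limma adjusted p = 0.437 and 0.423). Cnn3 had a change of -0.02, the non-muscle myosin gene Myh10 of 0.06, Lmod3 of -0.06, Smtnl2 of 0.17 and the cardiac kinase gene Mylk3 of 0.25 (limma adjusted p = 0.421).

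Signals that induce smooth muscle gave 1 call among 16 genes by limma. At unadjusted p below 0.05 there were 6 higher and 3 lower, against 5.5% and 3.94% of all genes. Without overlap 4 lay higher and 2 lower, against 8.36% and 7.06% of all genes. The median change was 0.03. Heyl, a Notch target gene of vascular smooth muscle, fell to 8.15 ± 0.11 in Tbx1 null, against 8.88 ± 0.03 in wild type (SD, n = 3 each; log2 change -0.73, limma adjusted p = 0.0133). The receptor gene Tgfbr2 of transforming growth factor beta had a change of -0.23 and Notch2 of 0.27 (limma adjusted p = 0.141 and 0.327). Hey2, another Notch target gene, had a change of 0.32 with overlapping arrays. Markers of mural cells, the smooth muscle cells and pericytes of vessels, gave 0 calls among 12 genes by limma, with a median of 0.02. At unadjusted p below 0.05 they had 2 higher and 3 lower, against 5.5% and 3.94% of all genes. Pdgfrb, the growth factor receptor that marks them, had a change of 0.14, while Vtn and Rgs4 had changes of -0.26 and -0.25 (limma adjusted p = 0.0798 and 0.326). The summed mural level, as a log2 value, was 13.09 to 13.24 on the Tbx1 null arrays, against 13.09 to 13.17 on the wild-type arrays, with overlap.

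**Figure D5:**
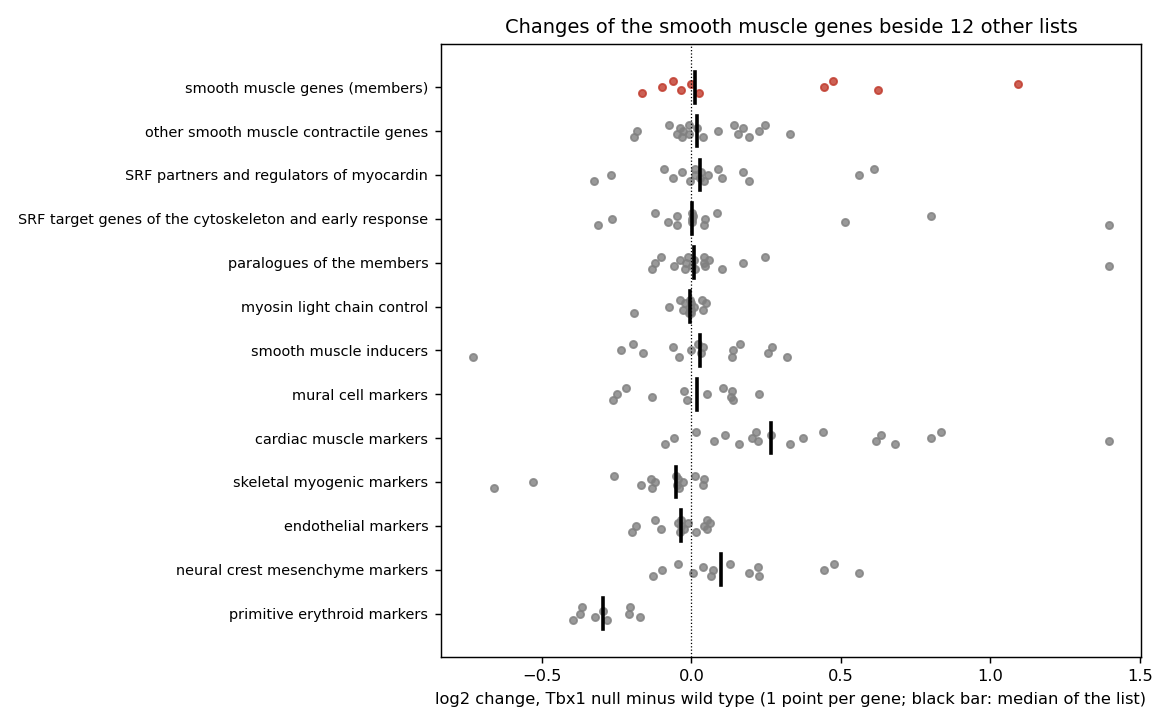
Log2 change of each gene (points, x axis, Tbx1 null minus wild type) on the smooth muscle list (red) and 12 other lists (grey), with the median of each list as a black bar. The smooth muscle genes fall into 4 between 0.44 and 1.09 and 6 near 0, the cardiac markers have a median of 0.26 and the primitive erythroid markers one of -0.30.

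Markers of the other cells that the arch holds were read beside the group. Of all genes, 8.36% lay higher and 7.06% lower without overlap. At a limma unadjusted p below 0.05, 5.5% of all genes were higher and 3.94% lower. Neural crest mesenchyme had 11 of 14 markers above 0, 6 higher without overlap and 0 lower, and a median of 0.10, with 0 calls by limma (6 higher and 0 lower at unadjusted p below 0.05) and changes of 0.23 for Prrx2 and 0.44 for Msx1. Its summed log2 level was 15.57 to 15.66 on the Tbx1 null arrays, against 15.45 to 15.52 on the wild-type arrays, without overlap. Primitive erythroid genes lay lower without overlap in 9 of 9 markers (median -0.30), with 0 calls by limma (0 higher and 9 lower at unadjusted p below 0.05) and changes of -0.40 for Slc4a1, -0.37 for Klf1 and -0.32 for Gata1. Their summed log2 level was 14.87 to 14.96 on the Tbx1 null arrays, against 15.11 to 15.14 on the wild-type arrays, without overlap. Of 15 skeletal myogenic markers 0 lay higher and 4 lower without overlap, none passed by limma (0 higher and 4 lower at unadjusted p below 0.05), and Myf5, Tnnt1 and Chrna1 had changes of -0.66, -0.17 and -0.26. The summed skeletal log2 level was 11.88 to 11.96 on the Tbx1 null arrays, against 11.97 to 12.17 on the wild-type arrays. Endothelial markers gave 0 calls among 15 genes by limma (0 higher and 1 lower at unadjusted p below 0.05), with a median of -0.03 and changes of -0.18 for Sox17, -0.12 for Esam and -0.20 for Tek, and the summed log2 level was 14.31 to 14.47 on the Tbx1 null arrays, against 14.42 on each wild-type array. The part of these cell types in the smooth muscle values was not tested.

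Members passed in 3 of the alternatives. With limma's array weights Acta2, Myocd and Cnn1 passed (adjusted p = 0.00808, 0.0187 and 0.0479), in a fit that called 1.68% of all genes. With an intensity trend and robust estimation Myocd alone passed (adjusted p = 0.0327), where 0.481% of all genes did. Without wild type replicate 1, the wild-type array with the highest Acta2 level, Acta2 passed (log2 change 1.30, adjusted p = 0.0424), where 0.0652% of all genes did. In the other alternatives none of the 10 passed.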

How the data were processed

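Total RNA of dissected mandibular arches (300 ng, Qiagen RNeasy Micro kit) was labelled with biotin, per the labels' protocols, and hybridised to 6 Affymetrix Mouse Gene ST arrays. The authors deposited one log2 level for each probe set and array. The submitters' processing notes name RMA and Expression Console 1.1. Summary level and filters are not stated in the sources used here. That the scale is log2 follows from the range of values (3.63 to 14.65, array medians 7.98 to 8.04). RMA equalises the arrays' distributions, which hides a shift common to most genes, and it tends to shrink changes of dim probe sets.

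Gene names came from the platform annotation: of 35556 probe sets, 21789 had 1 symbol, 1621 several and 12146 none. A RefSeq gene table (GRCm38.p6), matched by Entrez ID for 21698 of them, changed 0 symbols and was otherwise used for overlapping genes. Each of 19938 genes was read from its probe set with the highest mean. The fit by genotype used limma (version 3.58.1, R 4.3.3; lmFit, then eBayes), was two-sided and had no covariate, with Benjamini-Hochberg adjustment over all genes and a threshold of 0.05. It was tested on simulated data with known answers. Their variances were drawn from the distribution that limma fitted, with genes independent of each other. This run therefore checks the fit only and gives no power for the genes reported here. Over all genes the SE of the log2 change had a median of 0.0579 and a 95th percentile of 0.104. Those of Acta2 (0.181), Tagln (0.159), Cnn1 (0.111) and Myocd (0.106) lay above this percentile. Arrays have no read depth, so their number sets the precision. No pair of arrays held identical values.

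The members and the 12 other lists (186 distinct genes with the members, 180 measured) were chosen with earlier results of these data known. Named were Tbx1, the members, list genes past the threshold, up to 3 of lowest p per list, the paralogue of each member with the highest level, and the 5 genes most like Acta2 and Myocd. A few other list genes are named as examples, chosen after their values were seen. Promoters came from RefSeq. Alternatives were a replicate block, leaving out each array, repeated quantile normalisation, centring on medians, 2 filters on dim genes, eBayes with trend and robust estimation, array weights, averaging a gene's probe sets and testing every probe set.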

Additional observations from a re-analysis of the deposited data

How the results depend on the processing

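No smooth muscle gene passed by limma in 12 of 15 alternatives. The number that passed was 3 with array weights and 1 with trend and robust estimation, and 0 to 1 with an array left out. Over all genes, 32 calls became 6 with the replicate block, 96 with trend and robust estimation, 334 with array weights, 4 in the fit to every probe set and 3 to 20 with an array left out. The 17 higher and 15 lower became 12 and 22 with repeated quantile normalisation and 16 and 30 with centring. The median change of the group was 0.24 with genes below the median of mean level left out, where 6 members remained, and -0.01 to 0.04 with an array left out. The block, trend with robust estimation, the filters and the probe set choices leave the members' log2 changes as they are by construction. Under quantile normalisation, centring, array weights and each array left out, Acta2, Myocd, Tagln and Cnn1 stayed above 0 and Actg2, Mylk and Srf below 0, with Acta2 between 0.95 and 1.30 and Tagln between 0.28 and 0.60. Myh11, Smtn and Lmod1 turned sign in 2, 3 and 1 of these. Whether the replicate numbers pair the arrays is not known. Deviations of same-numbered arrays from their genotype means correlated at -0.05, 0.26 and 0.15 for replicates 1, 2 and 3. Replicates 2 and 3 of each genotype correlated best with their own number, and replicate 1 of each did not. Deviations from means of 3 arrays cannot settle the question. With the replicate block Acta2, at the same log2 change of 1.09, had a limma adjusted p of 0.143. Signal over background could not be judged for dim probe sets.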
